A study of Mus musculus with 2 samples.

Results

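Gm41496, Gm16310, 2210408F21Rik, 9530026P05Rik, D430036J16Rik, D030045P18Rik, 1700123O21Rik, Gm12326, Gm45650 and 1700016L21Rik are 10 transcripts annotated as long noncoding RNAs (lncRNAs) whose counts differed between types of thick ascending limb (TAL) nuclei. For 1700016L21Rik, single nuclei set the levels of the classes. The transcripts were 10 of the 32227 genes counted and of the 9574 counted genes annotated as lncRNA. They were chosen from the counts analysed here, by their levels across the deposited clusters of nuclei and across TAL classes, so those levels describe the members and carry no test.

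The thick ascending limb is the kidney segment that takes up sodium chloride without water, by way of the cotransporter NKCC2, encoded by Slc12a1, and thereby builds the concentration gradient of the medulla. Its cells differ along the segment and side by side within it, and the macula densa (MD), a plaque at its cortical end, senses luminal salt and signals to the glomerulus. lncRNAs are transcribed and often spliced like messenger RNAs but are not translated into a protein, many stay in the nucleus, and many are made in only 1 or a few cell types. For most of the transcripts named here no function is given, so each is placed by the genes that it lies within or beside.

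Nuclei came from the kidneys of male mice labelled as strain B6, genotype WT, and age 12 with no unit. The mice were of the NKCC2-INTACT line, in which tamoxifen-activated Cre under the NKCC2 promoter switches on a GFP fusion of the nuclear membrane protein SUN1, so that GFP-positive nuclei can be sorted. The superficial strip of the kidney gave the cortex library and all remaining tissue, deep cortex included, gave the medulla library, with 1 library per region. The number of animals behind each library was not given in the sources used here, and region and library cannot be told apart. The cortex library held 5442 filtered barcodes with a median of 2427 counts and the medulla library 8121 with a median of 2430, and 0 barcodes were shared between them.

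TAL nuclei were barcodes with at least 10 counts of Slc12a1. They were called MD with at least 3 counts of Nos1 and Pappa2 together, otherwise TAL-β with at least 2 counts of Tmem52b, otherwise TAL-γ with at least 2 counts of Tmem207 and Gpc5 together, and otherwise TAL-α. In cortex this gave 2824 TAL-α, 1493 TAL-β, 248 TAL-γ and 653 MD nuclei, and in medulla 3776, 571, 3542 and 78. Marker genes that the rule did not use followed the class names for MD, where Ptgs2 and Robo2 together reached 4874 counts per 1000000 counts of all genes (CPM) in cortex and 5921 in medulla against 7.62 to 479.6 CPM in the other classes. Cldn16, Kcnj10 and Pth1r together were highest in TAL-β, with 894 CPM in cortex and 841 in medulla, but stood at 751 in cortical TAL-γ. Of the 248 cortical TAL-γ nuclei, 132 lay in a deposited cluster with 632 TAL-β nuclei, so in cortex the name TAL-γ stands for the marker threshold alone. In medulla these genes summed to 206 CPM in TAL-γ and 154 in TAL-α. Cldn10 and Ptger3 together stood at 2193 CPM in medullary TAL-α, 1699 in TAL-γ and 410 in TAL-β, and at 1423, 532 and 273 in cortex. Medullary TAL-γ was the largest class in deposited clusters 2, 5 and 7 (1006, 936 and 420 nuclei). Another 241, 359 and 169 of its nuclei lay in clusters 3, 4 and 8 beside more TAL-α nuclei. TAL-α was the class left over, and 160 of its 2824 cortical nuclei lay in the deposited cluster that held 537 of the 653 MD nuclei. Proximal tubule genes, which mark another tubule segment, summed to between 1498 and 2891 CPM in the cortical TAL classes. They summed to between 277 and 465 in the medullary ones, and their part in the differences between libraries was not tested. Genes of the distal convoluted tubule (Slc12a3, Trpm6 and Pvalb), a further segment, were highest in TAL-β among the TAL classes. In cortex they summed to 309 CPM in TAL-β, 75.1 in TAL-α, 10.9 in TAL-γ and 151 in MD. The medullary sums were 169, 5.12, 5.30 and 30.1 CPM in the same order. Their part in the ratios of TAL-β to other classes was not tested. As a cell type that should lack TAL transcripts, barcodes with at most 2 counts of Slc12a1 and at least 5 of Lrp2 and Slc34a1 together were set aside. These proximal tubule-like barcodes numbered 86 in cortex and 91 in medulla. In the medullary ones Cldn16, Kcnj10 and Pth1r together stood at 227 CPM, with Cldn16 and Kcnj10 at 0. Their sum in medullary TAL-γ thus does not show the level of Kcnj10 by itself.

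Promoter windows of 3 transcripts are shown because their levels ran in opposite directions. 2210408F21Rik and D030045P18Rik were highest in the same medullary cluster, and 9530026P05Rik was highest in the cluster rich in MD nuclei. Each window runs from 250 bases before to 50 bases after the RefSeq start on the plus strand of GRCm38.p6, at chr6:31220101-31220400 for 2210408F21Rik, chr6:92940332-92940631 for 9530026P05Rik and chr10:45807454-45807753 for D030045P18Rik. Capitals mark matches on either strand to TGGAAA, the core bound by NFAT proteins, AGGTCA, the half-site of nuclear receptors, GTTAAT, the half-site of HNF1 proteins, or TATAAA, the TATA box.
2210408F21Rik: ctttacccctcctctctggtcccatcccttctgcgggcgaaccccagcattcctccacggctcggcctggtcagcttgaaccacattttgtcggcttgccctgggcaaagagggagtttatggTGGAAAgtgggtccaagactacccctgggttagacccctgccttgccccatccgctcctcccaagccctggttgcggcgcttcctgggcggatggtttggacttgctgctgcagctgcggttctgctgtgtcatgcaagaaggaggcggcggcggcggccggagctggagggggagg
9530026P05Rik: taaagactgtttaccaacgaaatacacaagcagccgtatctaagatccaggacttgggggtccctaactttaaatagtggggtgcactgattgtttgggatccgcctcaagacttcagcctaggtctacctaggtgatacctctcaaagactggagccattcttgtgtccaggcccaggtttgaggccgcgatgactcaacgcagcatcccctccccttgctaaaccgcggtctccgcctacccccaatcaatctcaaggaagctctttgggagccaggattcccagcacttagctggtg
D030045P18Rik: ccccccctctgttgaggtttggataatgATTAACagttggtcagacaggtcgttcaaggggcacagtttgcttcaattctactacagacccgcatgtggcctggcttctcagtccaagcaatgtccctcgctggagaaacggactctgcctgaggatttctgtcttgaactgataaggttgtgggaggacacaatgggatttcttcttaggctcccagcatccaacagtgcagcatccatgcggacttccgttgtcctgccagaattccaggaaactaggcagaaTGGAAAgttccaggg
The window of 2210408F21Rik held 1 match, to TGGAAA, that of 9530026P05Rik held 0 matches, and that of D030045P18Rik held 2, to TGGAAA and, as ATTAAC, to GTTAAT on the other strand. Of 32851 RefSeq promoters of the same length, 21.4% held TGGAAA, 16.3% AGGTCA, 7.1% GTTAAT and 13.6% TATAAA, and the 2 matches in D030045P18Rik did not overlap. G and C made up 63.3% of the window of 2210408F21Rik, 52.3% of that of 9530026P05Rik and 51% of that of D030045P18Rik. A RefSeq window was found for 8 of the 10 transcripts. Among the other 5 of these, D430036J16Rik, 1700123O21Rik, Gm12326 and Gm45650 held a match to 1 of the 4 motifs in at least 1 window, and 1700016L21Rik held none.

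Levels were taken as CPM over the counts of all genes in a class, with 95% exact Poisson intervals that cover counting error only. With 1 library per region there is no replicate, so no difference has a test. A ratio of levels is given with its 95% exact binomial interval, and a transcript was counted as past 2-fold where the ratio was at least 2 or at most 0.5 and both groups together held at least 20 counts. The plot of levels by class gives all 10 transcripts in both libraries.

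**Figure D1:**
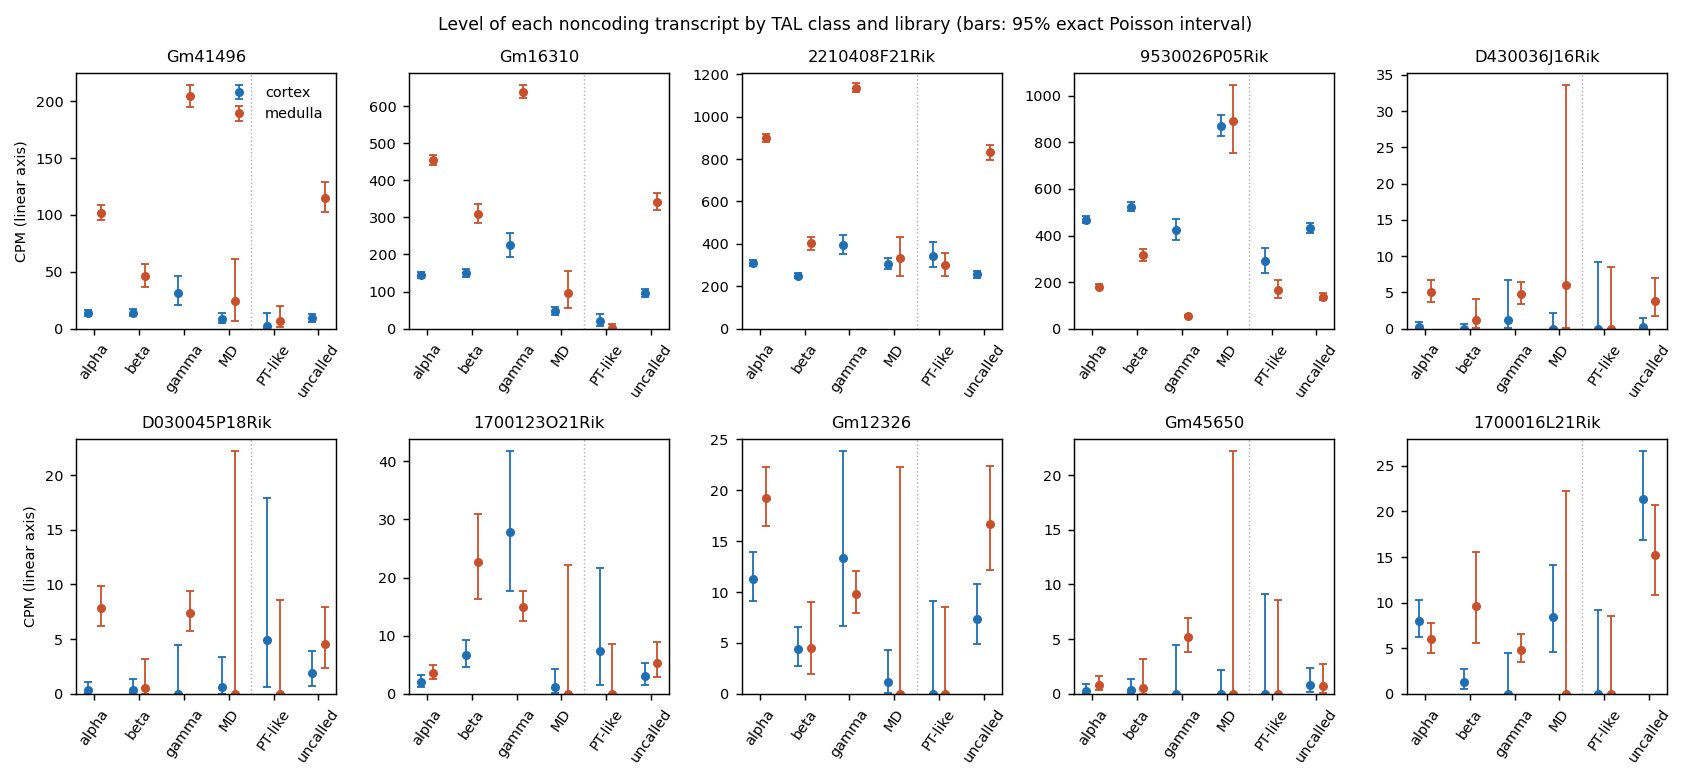
Level of each transcript (CPM, linear axes that start at 0) in the TAL classes, in proximal tubule-like barcodes (PT-like) and in barcodes outside the filtered set (uncalled), cortex in blue and medulla in orange, with 95% exact Poisson intervals as bars. Among whole classes, Gm41496, Gm16310 and 2210408F21Rik were highest in medullary TAL-γ (204, 639 and 1136 CPM), and 9530026P05Rik was highest in MD of both libraries (870 and 891 CPM).

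Gm41496 and Gm16310 lie side by side on chromosome 16 with the osmolyte transporter gene Slc5a3. Slc5a3 encodes the sodium and myo-inositol cotransporter, which loads cells with an organic osmolyte, and begins at the same position as Mrps6, which encodes a mitochondrial ribosomal protein. On GRCm39, Gm16310 (ENSMUSG00000086331, chr16:91891456-91893378, plus strand, 2 exons) lies inside an intron of Mrps6 on the same strand with 0 shared exon bases, and Gm41496 (ENSMUSG00000116747, chr16:91923176-91983416, plus strand, 3 exons) begins 13583 bases past the end of Mrps6. Reads of unspliced Mrps6 RNA within the span of Gm16310 and reads of Gm16310 cannot be told apart from the counts.

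Gm16310 stood at 145 CPM in TAL-α, 149 in TAL-β, 224 in TAL-γ and 46.8 in MD of cortex. In medulla it stood at 455, 310, 639 and 96.4 CPM in the same order. In TAL-α, TAL-β and TAL-γ medulla lay above cortex with separate intervals, and MD was the lowest class in both libraries, with overlapping intervals between the libraries (37.0 to 58.4 and 55.1 to 157). The ratio of medulla to cortex was 3.14 (95% interval 2.94 to 3.35) in TAL-α and 2.07 (1.85 to 2.32) in TAL-β. A count of Gm16310 was seen in 74.3% of medullary TAL-γ nuclei against 1.10% of medullary proximal tubule-like barcodes, at median depths of 2406 and 4607 counts, and in 47.4% against 0% once each nucleus was thinned to 1000 counts.

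Its counts kept close to 1 proportion to those of Mrps6. For each 100 counts of Mrps6 there were 45.1 of Gm16310 in cortical TAL-α, 46.7 in TAL-β, 46.3 in TAL-γ and 40.4 in MD, and in medulla 45.4, 45.4, 48.8 and 59.3. Over the 23 deposited clusters with at least 50 counts of Mrps6 the proportion had a median of 46.1 and ran from 37.5 to 63.6. The level of Mrps6 itself ran from 83.9 CPM in cortical cluster 3 to 1734 CPM in medullary cluster 4. By class, Mrps6 ran from 116 CPM in cortical MD to 1308 CPM in medullary TAL-γ. In barcodes outside the filtered set the proportion was 34.8 (95% interval 30.7 to 39.3) in cortex and 32.6 (30.2 to 35.2) in medulla, below TAL-α and TAL-β of the same library with separate intervals. Mrps6, Slc5a3 and Bckdhb, a subunit of the dehydrogenase of branched-chain ketoacids, were the 3 genes whose levels over the 26 clusters were most like those of Gm16310 (Pearson r on log2(CPM + 10) of 0.985, 0.982 and 0.980, over clusters that share libraries and depth).

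Gm41496 did not keep such a proportion. It stood at 13.4 CPM in TAL-α, 13.8 in TAL-β, 31.5 in TAL-γ and 8.40 in MD of cortex, and at 102, 46.1, 204 and 24.1 CPM in medulla. The medullary TAL classes were ordered TAL-γ, TAL-α, TAL-β with separate intervals, whereas cortical TAL-α and TAL-β did not differ beyond counting error (ratio of TAL-β to TAL-α 1.02, 95% interval 0.750 to 1.39). Its ratio of medulla to cortex was 7.58 (6.20 to 9.35) in TAL-α and 3.35 (2.41 to 4.67) in TAL-β. Per 100 counts of Mrps6 there were 4.19 of Gm41496 in cortical TAL-α, 10.2 in medullary TAL-α and 15.6 in medullary TAL-γ, and over clusters the proportion ran from 3.48 to 24.6. A count was seen in 1161 of the 3542 medullary TAL-γ nuclei (32.8%, or 17.2% when thinned) and in 3 of the 91 medullary proximal tubule-like barcodes (0% when thinned).

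The genes nearest to Gm41496 in pattern were Dnah11 (an axonemal dynein), Scel (sciellin, a protein of cornified epithelia) and Spag5 (a protein of the mitotic spindle). Their r was 0.969, 0.964 and 0.950 over the 26 clusters. Within the 13 cortical clusters r was 0.883, 0.583 and 0.743, and within the 13 medullary ones 0.985, 0.974 and 0.951. The 26 clusters include cortical cluster 13 and medullary cluster 11, which held 0 TAL nuclei. With a pseudocount of 1 in place of 10 CPM, 1 of these 3 remained among the nearest 3. Gm41495, a lncRNA that overlaps Gm41496 on the same strand with 0 shared exon bases, stayed at 1.21 CPM or below in every class.

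**Figure D2:**
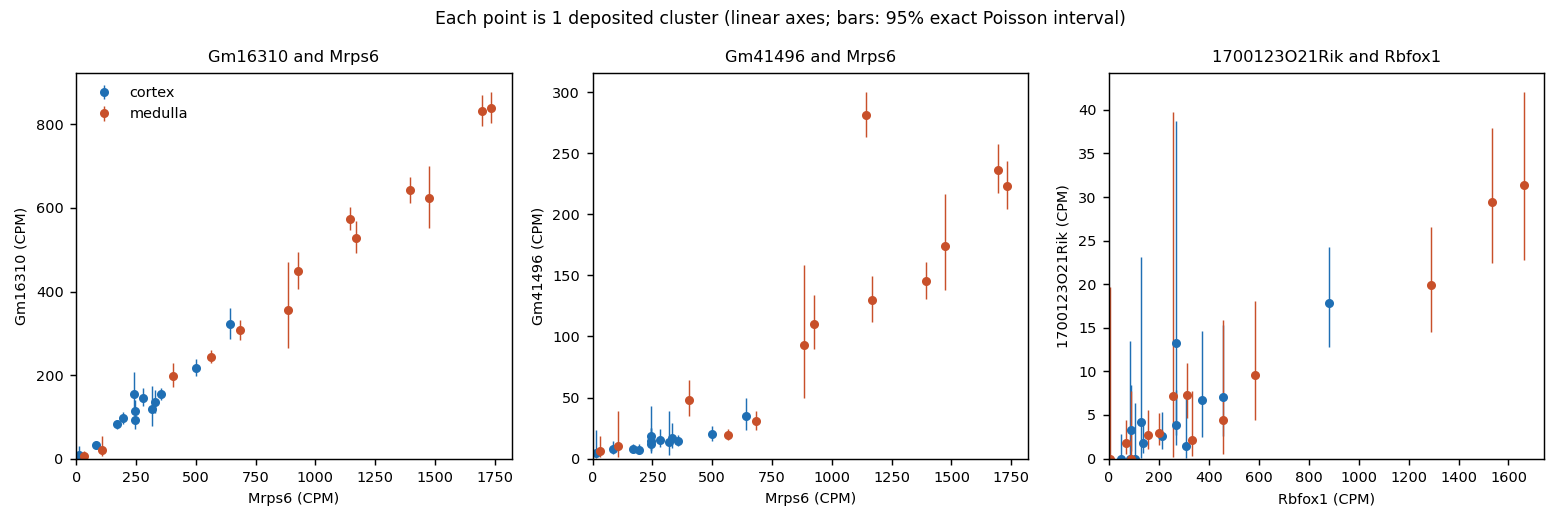
Level of a noncoding transcript (vertical axis, CPM) against that of the gene it lies within or beside (horizontal axis, CPM), each point 1 deposited cluster, cortex in blue and medulla in orange, bars 95% exact Poisson intervals. Gm16310 lies along 1 line with Mrps6 in both libraries, Gm41496 leaves that line in the medullary clusters and reaches 282 CPM, and 1700123O21Rik rises with Rbfox1.

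2210408F21Rik and 9530026P05Rik lie on chromosome 6 and ran in opposite directions. 2210408F21Rik (ENSMUSG00000087380, GRCm39 chr6:31196852-31361711, plus strand) begins head to head with Lncpint, itself a lncRNA known as a target of p53, and shares 756 exon bases with it on the opposite strand. It also shares 99 exon bases with Mkln1os on the opposite strand. 9530026P05Rik (ENSMUSG00000097462, GRCm39 chr6:92917271-93250030, plus strand) begins head to head with Adamts9, a metalloprotease gene, and overlaps 3250 bases of it with 0 shared exon bases. Whether the counting used strand was not given in the sources used here, and without strand, reads from the bases shared with Lncpint or Mkln1os cannot be told apart.

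2210408F21Rik stood at 310 CPM in TAL-α, 251 in TAL-β, 395 in TAL-γ and 306 in MD of cortex. In medulla it stood at 899, 402, 1136 and 331 CPM. The cortical classes lay within a narrow band, and the medullary TAL-α and TAL-γ nuclei stood far above it, with separate intervals. Medulla exceeded cortex 2.90-fold (95% interval 2.77 to 3.04) in TAL-α and 1.60-fold (1.46 to 1.76) in TAL-β, and within medulla TAL-γ exceeded TAL-β 2.83-fold (2.62 to 3.06). Lncpint moved less, with a ratio of medulla to cortex of 1.37 (1.32 to 1.42) in TAL-α, so that the counts of 2210408F21Rik per 100 of Lncpint went from 50.1 in cortical TAL-α to 106 in medullary TAL-α and 130 in medullary TAL-γ. The nearest genes in pattern were Spag5, Scel and the unnamed gene Gm14532 (r of 0.960, 0.954 and 0.950 over the 26 clusters). Within the cortical clusters r was 0.656, 0.597 and 0.804, and within the medullary ones 0.983, 0.954 and 0.956. Of these 3 genes, 1 remained among the nearest 3 with a pseudocount of 1 CPM.

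2210408F21Rik was also counted in barcodes that were not TAL. Proximal tubule-like barcodes held 345 CPM of 2210408F21Rik in cortex and 299 CPM in medulla, as much as the cortical TAL classes. Barcodes outside the filtered set, which can hold free RNA, held a level of 257 CPM (cortex) or 832 CPM (medulla). Per 1000 counts of Slc12a1 they held 18.4 of 2210408F21Rik in cortex and 38.0 in medulla. Proximal tubule-like barcodes, picked for at most 2 counts of Slc12a1, held 3658 and 2688 on 38 and 48 counts of Slc12a1. The part of free RNA in the proximal tubule-like counts was not tested. In thinned nuclei a count was seen in 24.4% of cortical proximal tubule-like barcodes and 24.2% of cortical TAL-α nuclei (55.8% and 48.3% unthinned, at median depths of 3488 and 2425), and in 24.2% of medullary proximal tubule-like barcodes and 55.9% of medullary TAL-γ nuclei (65.9% and 77.4% unthinned). The share in cortical TAL-α was thus no higher than in proximal tubule-like barcodes, so it does not set cortical TAL-α apart from them. Whether either share reflects expression was not tested.

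9530026P05Rik was highest in MD and, in the other TAL classes, higher in cortex than in medulla. It stood at 468 CPM in TAL-α, 523 in TAL-β, 424 in TAL-γ and 870 in MD of cortex. In medulla it stood at 181, 316, 53.0 and 891 CPM. MD was the highest class in both libraries with the interval apart from all others, its level was alike in cortex and medulla, and medullary TAL-γ was the lowest class. MD exceeded the other TAL nuclei 1.79-fold (95% interval 1.69 to 1.90) in cortex and 6.58-fold (5.54 to 7.77) in medulla. The cortical ratio was not past 2-fold, and the medullary one was taken over nuclei that include the low TAL-γ class. High levels were not limited to MD. Cortical clusters 4 and 8, with 0 and 15 MD nuclei, held 761 and 718 CPM, beside 1056 CPM in cluster 3 with 537 MD nuclei. Medullary TAL-β exceeded medullary TAL-γ 5.96-fold (5.27 to 6.75), and cortical TAL-α exceeded medullary TAL-α 2.58-fold (2.44 to 2.74).

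A count of 9530026P05Rik was seen in 79.2% of cortical MD nuclei and in 46.5% of cortical proximal tubule-like barcodes, and in 56.0% against 15.1% when thinned, with MD the shallower of the pair at a median of 1883 counts. Proximal tubule-like barcodes held 117 and 72 counts of it, a level of 290 CPM in cortex and 167 CPM in medulla. In cortex this level lay below every TAL class with separate intervals. In medulla it lay above TAL-γ (53.0 CPM) with separate intervals, and its interval (130 to 210) held the TAL-α level of 181 CPM. When thinned, a count was seen in 10.99% of medullary proximal tubule-like barcodes, 12.4% of TAL-α and 3.42% of TAL-γ nuclei. The level thus does not set medullary TAL-α apart from proximal tubule-like barcodes. Barcodes outside the filtered set, which can hold free RNA, held a level of 431 CPM (cortex) or 137 CPM (medulla). Per 1000 counts of Slc12a1 they held 30.8 of 9530026P05Rik in cortex and 6.25 in medulla. Proximal tubule-like barcodes, picked for at most 2 counts of Slc12a1, held 3079 and 1500 on 38 and 48 counts of Slc12a1. The part of free RNA in the proximal tubule-like counts was not tested. Adamts9 did not follow the MD pattern, with 53.4 CPM in cortical MD and 57.5 in cortical TAL-α. The genes nearest in pattern were Slc9a2, which encodes the sodium-proton exchanger NHE2, Hpcal1, a neuronal calcium sensor, and Kcnc2, a voltage-gated potassium channel, with r of 0.926, 0.925 and 0.919 over the 26 clusters. All 3 remained among the nearest 3 with a pseudocount of 1 CPM.

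Over the 26 clusters the correlation between 2210408F21Rik and 9530026P05Rik was -0.863, and it was -0.496 within the 13 cortical and -0.780 within the 13 medullary clusters. At the level of single nuclei thinned to 1000 counts, 4.20% of medullary TAL-α nuclei had a count of both, and the product of the separate shares (48.0% and 12.4%) was 5.96%. In cortical TAL-α nuclei 7.76% had a count of both and the product was 7.97%.

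**Figure D3:**
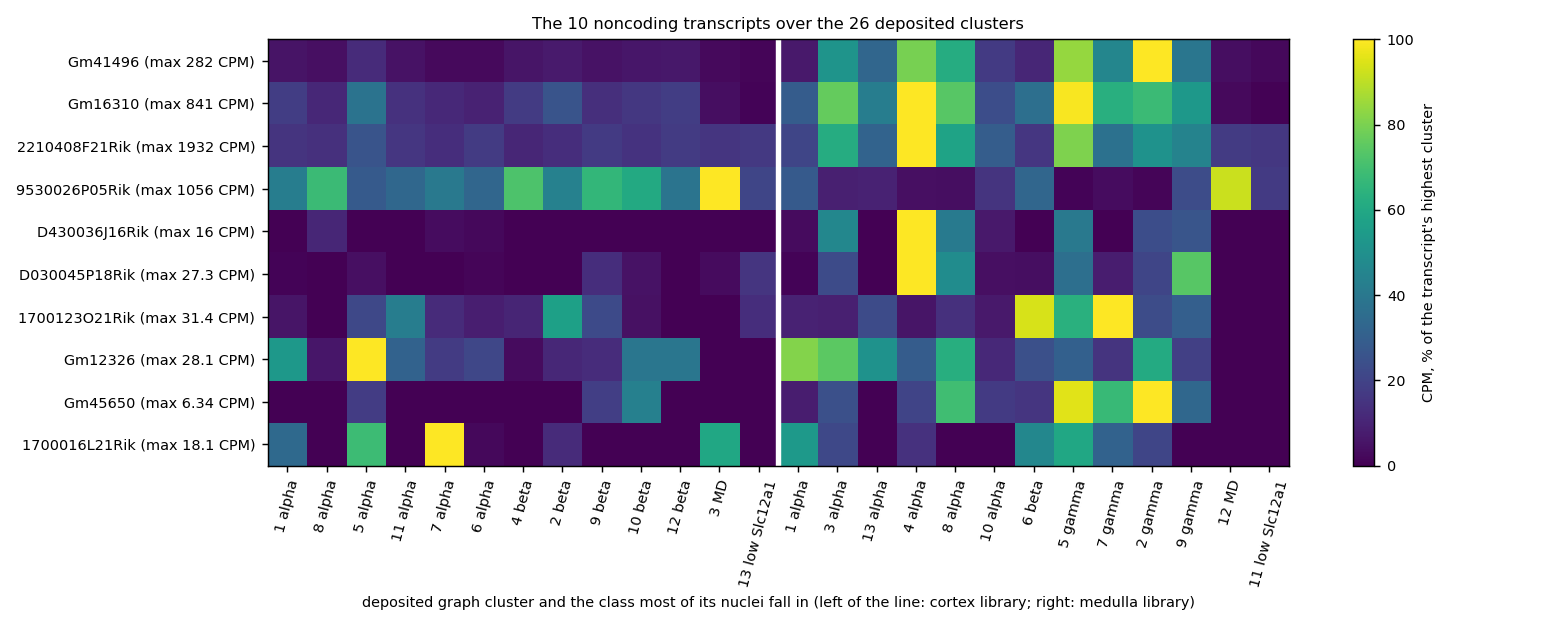
Level of the 10 transcripts in the 26 deposited clusters, as percent of each transcript's highest cluster (colour, with the highest CPM beside the name), clusters of cortex left and of medulla right of the white line, each with its number and the class with the largest count of its nuclei. That class need not hold most barcodes of the cluster: in cortical cluster 12 it was TAL-β with 26 of 81. In medullary cluster 10, TAL-α and TAL-γ tied at 58 nuclei each. 9530026P05Rik peaks in the MD clusters of both libraries, whereas Gm41496, Gm16310, 2210408F21Rik, D430036J16Rik and D030045P18Rik peak in medullary TAL-α and TAL-γ clusters.

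D430036J16Rik and D030045P18Rik were scarce transcripts of the medulla. D430036J16Rik (ENSMUSG00000097466, GRCm39 chr9:81513604-81528702, plus strand) shares 897 exon bases on the opposite strand with Htr1b, which encodes serotonin receptor 1B. D030045P18Rik (ENSMUSG00000110874, GRCm39 chr10:45683658-45728379, plus strand) overlaps no other counted gene, and its nearest counted protein-coding gene is Hace1, a ubiquitin ligase.

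D430036J16Rik had 2, 0, 1 and 0 counts in TAL-α, TAL-β, TAL-γ and MD of cortex and 47, 2, 43 and 1 in medulla. Its level was 5.01 CPM (95% interval 3.68 to 6.66) in medullary TAL-α and 4.75 (3.44 to 6.40) in medullary TAL-γ, which as whole classes did not differ beyond counting error, and 0.251 (0.0304 to 0.907) in cortical TAL-α. The log2 ratio of medulla to cortex in TAL-α was 4.32, and the interval of the ratio itself ran from 5.23 to 170 on the 2 cortical counts. Htr1b showed the same contrast with 8.10 CPM in medullary TAL-α, 2.85 in TAL-β and 11.9 in TAL-γ and at most 0.600 CPM in any cortical class. There were 61.8 counts of D430036J16Rik per 100 of Htr1b in medullary TAL-α (42.0 to 90.1) and 39.8 in TAL-γ (27.3 to 57.2), and without strand the reads of the shared exon bases cannot be told apart.

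D030045P18Rik had 3, 2, 0 and 1 counts in TAL-α, TAL-β, TAL-γ and MD of cortex and 74, 1, 67 and 0 in medulla. As whole classes, medullary TAL-α and TAL-γ were alike at 7.89 CPM (6.20 to 9.91) and 7.40 CPM (5.73 to 9.40), and medullary TAL-β stood at 0.569 CPM on 1 count. The ratio of medulla to cortex in TAL-α was 20.9 (6.90 to 104). Both transcripts peaked in medullary cluster 4, which held 644 TAL-α and 359 TAL-γ nuclei, with 37 counts of D430036J16Rik and 63 counts of D030045P18Rik, a level of 27.3 CPM for the latter. Over the 26 clusters they correlated at 0.881, and at 0.896 within medulla, while cortex held 3 and 9 counts of them in all filtered barcodes and its clusters say nothing on the pair. Rph3a, which encodes the vesicle protein rabphilin, was the nearest gene for both (r of 0.890 for D430036J16Rik and 0.856 for D030045P18Rik), and it was not among the nearest 3 of either with a pseudocount of 1 CPM.

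1700123O21Rik was low in TAL-α and higher in TAL-β and TAL-γ, and Gm45650 had most of its counts in medullary TAL-γ. 1700123O21Rik (ENSMUSG00000101481, GRCm39 chr16:5768398-5841543, plus strand) lies wholly within Rbfox1, a regulator of splicing, on the same strand with 0 shared exon bases. Gm45650 (ENSMUSG00000109992, GRCm39 chr8:61172325-61178840, plus strand, 2 exons) overlaps no other counted gene.

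1700123O21Rik stood at 2.01 CPM in TAL-α, 6.69 in TAL-β, 27.9 in TAL-γ and 1.20 in MD of cortex, on 16, 35, 23 and 2 counts. In medulla it stood at 3.63, 22.8 and 14.9 CPM in TAL-α, TAL-β and TAL-γ on 34, 40 and 135 counts, with 0 in MD, where 3 counts would be 18.1 CPM. TAL-α was below TAL-β and TAL-γ in both libraries with separate intervals, and in medulla TAL-β exceeded TAL-α 6.28-fold (95% interval 3.88 to 10.2) and TAL-γ exceeded it 4.11-fold (2.81 to 6.18). In cortex the excess of TAL-β over TAL-α was 3.33-fold (1.80 to 6.45). On the log2 scale this is 1.74, and it was 0.34 when nuclei were thinned to 1000 counts and their classes set again, which left 514 TAL-β nuclei.

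Rbfox1 had the same order in medulla, with 217 CPM in TAL-α, 1129 in TAL-β and 863 in TAL-γ. The counts of 1700123O21Rik per 100 of Rbfox1 were 1.67, 2.02 and 1.73 in these classes, with overlapping intervals. In cortical TAL-α, TAL-β and TAL-γ they were 1.08 (0.616 to 1.76), 1.65 (1.15 to 2.31) and 2.85 (1.80 to 4.31), with the intervals of TAL-α and TAL-γ apart. Reads of unspliced Rbfox1 RNA within the span and reads of the lncRNA cannot be told apart from the counts. Rbfox1 was also the nearest gene in pattern (r of 0.847 over the 26 clusters), followed by Tmem207, which the rule used to call TAL-γ, and Jag1, a Notch ligand.

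Gm45650 had 4 counts in the TAL classes of cortex. In medulla it had 8 in TAL-α, 1 in TAL-β, 47 in TAL-γ and 0 in MD, which is 0.853, 0.569 and 5.19 CPM in the first 3. TAL-γ exceeded TAL-α 6.08-fold (95% interval 2.85 to 14.9), its ratio to TAL-β rested on 1 count there, and the 47 counts fell in 46 nuclei, 1.30% of the class. Proximal tubule-like barcodes held 0 counts of it in both libraries, where 3 counts would be 7.44 CPM in cortex and 6.95 CPM in medulla. In medullary MD, 3 counts would be 18.1 CPM. These limits lie above the TAL-γ level, so the 0 counts do not set those barcodes apart from TAL-γ. Its nearest gene in pattern was Slc26a10, of an anion exchanger family, with an r of 0.841.

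Gm12326 (ENSMUSG00000085251, GRCm39 chr11:71630223-71631485, minus strand, 1 exon) overlaps no other counted gene and had its highest class level in medullary TAL-α. It stood at 11.3 CPM in TAL-α, 4.40 in TAL-β, 13.3 in TAL-γ and 1.20 in MD of cortex, on 90, 23, 11 and 2 counts. In medulla it stood at 19.2, 4.55 and 9.83 CPM on 180, 8 and 89 counts, with 0 in MD. TAL-α exceeded TAL-β in both libraries, 2.57-fold (95% interval 1.61 to 4.26) in cortex and 4.21-fold (2.09 to 9.91) in medulla, and the cortical TAL-γ level, on 11 counts, did not differ from that of cortical TAL-α beyond counting error, with an interval (6.66 to 23.9) that held the medullary TAL-α level as well. Of the 26 clusters, cortical cluster 5 was the highest at 28.1 CPM. Wwox, an oxidoreductase gene, was the nearest gene in pattern (r of 0.843 over the 26 clusters), and it was not among the nearest 3 with a pseudocount of 1 CPM.

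1700016L21Rik differed from the other transcripts in how its counts were spread. It (ENSMUSG00000101483, GRCm39 chr1:80317232-80477001, plus strand) overlaps Cul3, a ubiquitin ligase scaffold, by 1306 bases on the opposite strand with 0 shared exon bases, and lies 1788 bases from Dock10. It also spans Gm45261, a gene annotated as protein-coding on the opposite strand, with 0 shared exon bases. Its levels were 8.03 CPM in TAL-α, 1.34 in TAL-β, 0 in TAL-γ and 8.40 in MD of cortex, and 5.97, 9.68, 4.86 and 0 CPM in medulla. These levels followed no order that the libraries shared, and single nuclei set them. In cortex its 85 counts fell in 13 barcodes, and the 5 highest held 72 of them (84.7%), with 31 in 1 TAL-α nucleus. In medulla 117 counts fell in 17 barcodes, and the 5 highest held 68 (58.1%).

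Few genes were so concentrated. Of 7089 genes with 50 to 500 counts in cortex, 2 had as high a share of their counts in 5 barcodes, and of 6612 in medulla, 5 had. The level in medullary TAL-β, 9.68 CPM, came from 17 counts in 1 nucleus, and 11 of the 14 counts in cortical MD came from 1 nucleus. A Poisson interval does not cover such a spread, so the 7.23-fold excess of medullary over cortical TAL-β rests on that nucleus. The nuclei with at least 5 counts numbered 5 in cortex and 11 in medulla, were called TAL-α, TAL-β, TAL-γ or MD, and had between 1749 and 5708 counts of all genes. By contrast the highest count of Gm12326 in 1 barcode was 4, and that of 1700123O21Rik was 3, and the plot of counts per barcode shows all 3 transcripts.

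**Figure D4:**
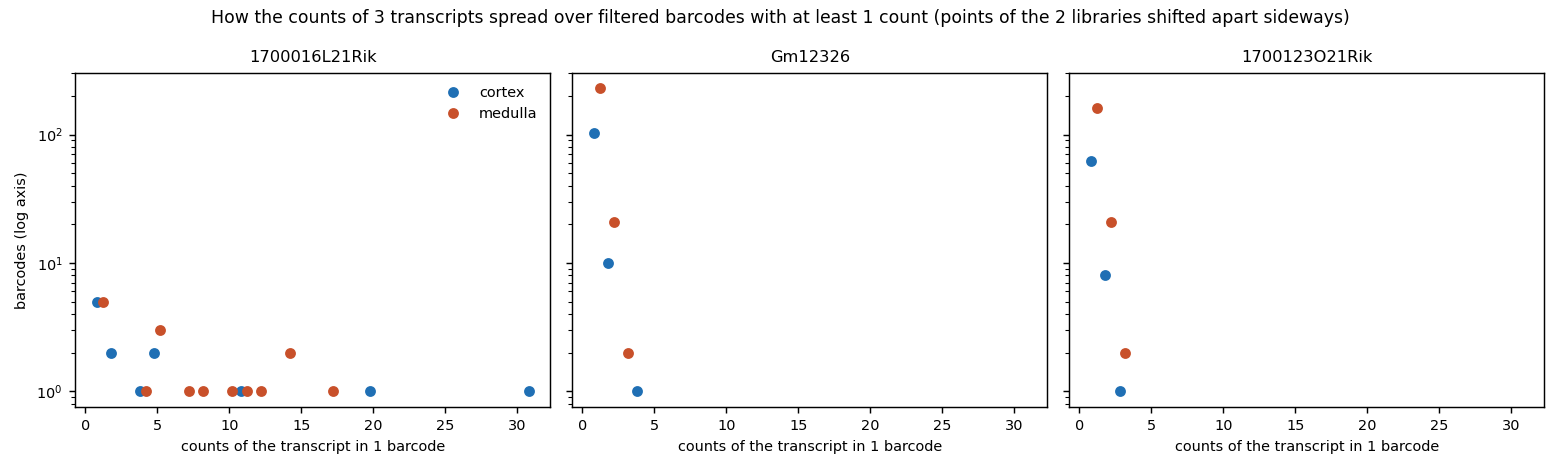
Number of filtered barcodes (vertical log axis) by the counts of the transcript they held (horizontal axis, linear), cortex in blue and medulla in orange, shifted apart sideways. 1700016L21Rik reached 31 counts in 1 barcode, whereas Gm12326 and 1700123O21Rik stayed at 4 counts or fewer.

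Read by comparison, the count of members past 2-fold stands beside the percent of all genes tested that were past 2-fold the same way. The members were chosen on these levels, so nothing is read from the difference. All 10 members had at least 20 counts in both groups together unless a smaller number is given. For TAL-β against TAL-α, 7 members had at least 20 counts in cortex and 9 in medulla. In cortex 1 was higher (1700123O21Rik, all genes 2.71%) and 2 were lower (Gm12326 and 1700016L21Rik, all genes 2.29%). In medulla 1 was higher (1700123O21Rik, all genes 3.25%) and 5 were lower (Gm41496, 2210408F21Rik, D430036J16Rik, D030045P18Rik and Gm12326, all genes 5%).

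For TAL-γ against TAL-α in medulla, 3 were higher (Gm41496, 1700123O21Rik and Gm45650, all genes 1.35%) and 1 was lower (9530026P05Rik, all genes 2.98%). Gm41496 passed by little, at 2.01-fold (95% interval 1.86 to 2.17), and its log2 ratio of 1.01 was 0.62 in nuclei thinned to 1000 counts, 0.86 with stricter class thresholds and 0.94 with equal weight for each nucleus. For TAL-γ against TAL-β in medulla, 7 were higher (all but 9530026P05Rik, 1700123O21Rik and 1700016L21Rik, all genes 5.31%) and 1 was lower (9530026P05Rik, all genes 5.17%).

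For MD against the other TAL nuclei in cortex, 7 members had at least 20 counts. Of these, 3 were lower (Gm16310, 1700123O21Rik and Gm12326, all genes 7.93%) and 0 were higher (all genes 7.26%). In medulla 1 was higher (9530026P05Rik, all genes 17.8%) and 3 were lower (Gm41496, Gm16310 and 2210408F21Rik, all genes 8.5%). The excess of Gm12326 in the other cortical TAL nuclei, 7.37-fold (2.00 to 61.6), rested on 2 MD counts, and its log2 ratio of -2.88 was -0.44 in thinned nuclei. 1700016L21Rik had a log2 ratio of 0.73 in cortical MD, and of -1.36 with a minimum of 20 Slc12a1 counts, which drops its nucleus with 11 counts. Only 78 MD nuclei with 166019 counts stood on the medullary side, and 5 of the members had 0 counts there, where the interval of the ratio to the other TAL nuclei reached up to 1.63 for Gm12326 and up to 8.28 for Gm45650. The median log2 ratio over the members with at least 20 counts and a count in MD was -0.80 in cortex and -1.54 in medulla, beside 0.02 and 0.21 over all genes and -0.01 and 0.74 over annotated lncRNAs. Genes with 0 MD counts whose limit of 3 counts gave no direction were left out of these medians too. The medians for medulla thus do not describe all genes or lncRNAs tested.

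For medulla against cortex, 9 members had at least 20 counts in TAL-α and 7 in TAL-β. In TAL-α 5 were higher (Gm41496, Gm16310, 2210408F21Rik, D430036J16Rik and D030045P18Rik, all genes 2.02%) and 1 was lower (9530026P05Rik, all genes 11%). In TAL-β 4 were higher (Gm41496, Gm16310, 1700123O21Rik and 1700016L21Rik, all genes 1.27%) and 0 were lower (all genes 12%). The ratio of 1700016L21Rik there rests on 1 nucleus. The median log2 ratio of all genes was -0.10 in TAL-α and -0.09 in TAL-β, and that of the members with at least 20 counts was 1.54 and 1.05. In TAL-β, Gm41496 was no longer past 2-fold when the deposited clusters stood in for the classes (log2 ratio 0.80), and Gm16310, which passed by little at 1.05, lay between 0.56 and 0.98 in 6 of its alternatives.

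A list of 22 lncRNAs known from other tissues, such as Malat1, Neat1, Tug1 and Kcnq1ot1, served as a comparison. Of these, 15 had at least 20 counts in each comparison of TAL-α, TAL-β and TAL-γ within a library, and 0 were past 2-fold in any of the 4. Among all annotated lncRNAs tested in these comparisons, between 8.25% and 20.7% were past 2-fold in either direction. For MD against the other TAL nuclei, 17 of the list had at least 20 counts in cortex and 15 in medulla. In MD of cortex Peg13 was higher (all genes 7.26%, annotated lncRNAs 10.7%) and Meg3 lower (7.93% and 14.5%). They rested on 6 and 1 MD counts, with intervals of the ratio that include 1. In MD of medulla 1 was higher, beside 17.8% of all genes and 20.9% of annotated lncRNAs. It was Ftx, a lncRNA of the X inactivation centre, at 2.67-fold (95% interval 1.49 to 4.44).

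How levels changed along the segment within a class was followed with a score. Nuclei of each class were ranked by the share of 11 medulla genes among their counts of these and 12 cortex genes, genes that the study chose on these libraries, and cut into 3 tertiles of equal size. The study had also picked 3 of the transcripts as regional markers, 9530026P05Rik for cortex and Gm16310 and 2210408F21Rik for medulla, and these were left out of the lists here, so their direction along the score is not independent of that choice. The direction between libraries is fixed by the lists, and only the change within a class of 1 library is described.

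In medullary TAL-α, Gm41496 went from 21.3 CPM in the lower tertile to 102 in the middle and 196 in the upper tertile. 2210408F21Rik went from 355 to 892 and 1544 CPM, and 9530026P05Rik from 344 to 117 and 59.4 CPM. The tertiles had separate intervals for all 3 transcripts, and the median share of medulla genes rose from 46.2% to 90.7% and 100%. The upper tertile exceeded the lower 9.18-fold for Gm41496 (95% interval 7.17 to 11.9) and 4.35-fold for 2210408F21Rik (4.08 to 4.64), and the lower exceeded the upper 5.79-fold for 9530026P05Rik (4.92 to 6.83). The lower tertile of medullary TAL-α thus came near cortical TAL-α for Gm41496 and 2210408F21Rik (13.4 and 310 CPM), with the intervals still apart.

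Medullary TAL-β showed the same directions, with 16.4, 40.5 and 77.9 CPM of Gm41496 and 548, 334 and 92.5 CPM of 9530026P05Rik over the tertiles. In medullary TAL-γ, 9530026P05Rik went from 100.2 to 29.0 and 22.5 CPM, Gm41496 from 139 to 241 and 243 CPM, and 2210408F21Rik from 823 to 1316 and 1316 CPM. The upper tertile there held 1180 nuclei that all had a share of 100%, as had 188 nuclei of the middle tertile, so those tertiles were split by file order and the last step is not a ranking. The order of whole medullary classes did not hold for every transcript in the upper tertiles. There 2210408F21Rik was higher in TAL-α (1544 CPM, 1499 to 1590) than in TAL-γ (1316 CPM, 1274 to 1360). D430036J16Rik was higher in TAL-α too, at 14.6 CPM (10.5 to 19.7) against 5.15 CPM (2.82 to 8.6), on 42 and 14 counts. In the middle TAL-γ tertile it stood at 7.91 CPM (5.07 to 11.8), which overlaps the interval of upper TAL-α. D030045P18Rik stood at 19.1 CPM in upper TAL-α and 12.1 CPM in upper TAL-γ, with overlapping intervals. Gm16310 was alike (731 and 740 CPM), and Gm41496 was higher in TAL-γ (243 against 196 CPM). Cortical TAL-α went from 563 to 396 CPM of 9530026P05Rik and from 278 to 346 CPM of 2210408F21Rik, and Gm41496 did not change beyond counting error (13.9, 10.4 and 15.7 CPM). In cortical TAL-γ, with 83 or 82 nuclei in each tertile, 9530026P05Rik went from 675 to 388 and 218 CPM, and Gm41496 was 3.47-fold higher in the upper than in the lower tertile (95% interval 1.23 to 12.0) on 17 and 5 counts.

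**Figure D5:**
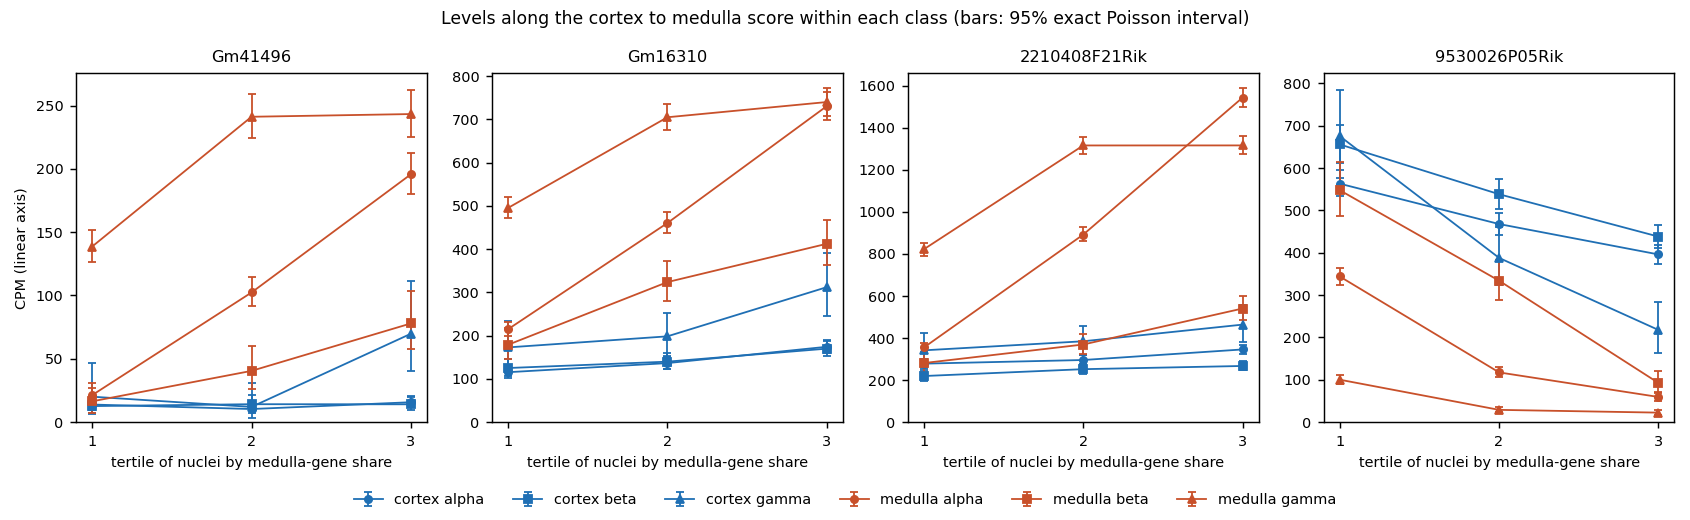
Level (CPM, linear axes that start at 0) of 4 transcripts in tertiles of nuclei ranked by the share of medulla genes, within TAL-α (circles), TAL-β (squares) and TAL-γ (triangles) of cortex (blue) and medulla (orange), with 95% exact Poisson intervals. In medullary TAL-α, Gm41496 rises from 21.3 to 196 CPM while 9530026P05Rik falls from 344 to 59.4 CPM.

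Gm16310 needed a separate reading, because Mrps6 and Slc5a3 are among the medulla genes of the score. Its ratio of upper to lower tertile was 3.40 in medullary TAL-α, 1.51 in cortical TAL-α and 1.36 in cortical TAL-β. With Mrps6 and Slc5a3 left out of the score, a setting chosen after seeing the data, these ratios were 3.28 (95% interval 3.02 to 3.58), 1.11 (0.964 to 1.28) and 1.00 (0.839 to 1.20). The change of Gm16310 along the score remained in medulla and was within counting error in cortex.

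The class thresholds cut through a range of marker counts, and the values just outside and just inside them were as follows. In cortex, 133 nuclei with 2 counts of Nos1 and Pappa2 held 815 CPM of 9530026P05Rik and 94 nuclei with 3 counts held 857 CPM. In medulla, 370 nuclei with 1 count of Tmem52b held 106 CPM of Gm41496 and 643 CPM of 2210408F21Rik, and 205 nuclei with 2 counts held 56.8 and 513 CPM. At the TAL-γ threshold in medulla, 748 nuclei with 1 count of Tmem207 and Gpc5 held 155 CPM of Gm41496 and 124 CPM of 9530026P05Rik, and 501 nuclei with 2 counts held 190 and 77.5 CPM. At the MD threshold in medulla, 11 nuclei on each side held 441 and 723 CPM of 9530026P05Rik.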

How the data were processed

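Nuclei of the NKCC2-INTACT line were sorted for GFP and made into 3′ PIPseq libraries, 1 from cortex and 1 from medulla. The authors aligned reads to GRCm39 and deposited whole-number counts per gene and barcode, for filtered and for all barcodes, with cluster numbers made separately in each library. These deposited counts precede the doublet calling, removal of free RNA, normalization and integration that the authors describe (Seurat 4.4.0, per the labels). The deposited UMAP coordinates were not used here. Whether counting used strand, and how many animals were pooled, was not given in the sources used here.

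The 10 transcripts, the class rule and all gene lists were chosen with earlier results of these data known. Groups came from the labels (region) and from the class rule. Doublets were kept in the main values. Counts were summed per library and class and scaled to CPM with exact Poisson intervals, ratios had exact conditional binomial intervals, and all intervals cover counting error only. With 1 library per region no test was made and no p-value is given. All genes were compared in the same way, with a minimum of 20 counts in both groups together. Named neighbours were genes that overlap a transcript or lie nearest in GENCODE M39 (GRCm39), searched only among the genes counted here. Named similar genes were the 3 with the highest Pearson r on log2(CPM + 10) over the 26 clusters among genes with at least 200 counts. Filtered totals were 16457300 counts in cortex and 20947211 in medulla, and barcodes outside the filtered set held 3653978 and 2636901 more. A class with 0 counts was given the level of 3 counts as its limit. In all, 11 alternatives were tried, among them stricter class thresholds, removal of the 5% of barcodes with the highest Scrublet scores, thinning to 1000 counts, subtraction of 10% of the profile of uncalled barcodes, and the deposited clusters in place of the classes. Scripts used Python 3.11.15, numpy 2.4.6, scipy 1.17.1, pandas 2.3.3, scanpy 1.11.5 and matplotlib 3.10.9 and were tested on simulated counts.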

Additional observations from a re-analysis of the deposited data

Results flagged for a closer look

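1700016L21Rik was the transcript whose level in barcodes outside the filtered set, which the comparisons do not use, lay above its level in filtered barcodes with separate intervals in both libraries. In cortex it stood there at 21.3 CPM (95% interval 16.9 to 26.6, 78 counts in 66 barcodes) against 5.16 CPM (4.13 to 6.39) in filtered barcodes, and in medulla at 15.2 CPM (10.8 to 20.7, 40 counts in 36 barcodes) against 5.59 CPM (4.62 to 6.69). D030045P18Rik, D430036J16Rik and Gm45650 in cortex and Gm12326 in medulla were also higher there, with overlapping intervals. Outside the filtered set, the 5 highest barcodes held 19.2% of the counts of 1700016L21Rik in cortex and 22.5% in medulla. In filtered barcodes these shares were 84.7% and 58.1%. Barcodes outside the set with a count of it had a median of 11.5 counts of all genes in cortex and 8.5 in medulla. Filtered barcodes had medians of 2427 and 2430. At the lower medians a barcode can hold few counts of 1 transcript, so the shares do not tell whether the counts were spread differently. What the difference in level comes from was not tested.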

How the results depend on the processing

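Of 330 recomputed ratios past 2-fold in the main values, 276 moved by less than counting error, 54 moved by more and 0 changed sign. The number of transcripts past 2-fold moved by more than 1.5 times in 7 cases. With nuclei thinned to 1000 counts it went from 3 to 1 for TAL-β against TAL-α in cortex, from 8 to 5 for TAL-γ against TAL-β in medulla and from 4 to 0 for medulla against cortex in TAL-β. That last number was 2 with 10% of the uncalled profile subtracted and also 2 with the deposited clusters as classes. For MD against other TAL nuclei in cortex it went from 3 to 5 with a minimum of 20 Slc12a1 counts and to 5 with the deposited clusters. Thinning left fewer nuclei in the classes (514 TAL-β in cortex, 191 in medulla), and the cause of the other changes was not tested. Of single transcripts, 1700016L21Rik in cortical TAL-β (log2 -2.59 to -0.90, thinned), Gm12326 in medullary TAL-γ against TAL-β (1.11 to 0.66, deposited clusters) and Gm41496 in medullary TAL-β against TAL-α (-1.14 to -0.99, with TAL-α held free of other markers) no longer passed 2-fold. The thinned value of MD in medulla could not be given. The score without Mrps6 and Slc5a3 was chosen after seeing the data. With 1 library per region no library could be left out. No paired analysis was possible because each region had 1 library and no test was made. Depth limits the transcripts below about 10 CPM in TAL-β and MD of medulla, where 1 count is a large part of a level.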

Other observations

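Among the known lncRNAs set beside the 10 transcripts, 15 had at least 20 counts for medulla against cortex in TAL-α and 15 in TAL-β. In TAL-α 2 were past 2-fold lower in medulla, beside 11% of all genes and 11.1% of annotated lncRNAs. In TAL-β 3 were, beside 12% and 13.5%, and 0 were higher in either class. Snhg11, a host gene of a small nucleolar RNA, stood at 19.1 CPM in medullary and 93.7 CPM in cortical TAL-α, 4.91-fold lower in medulla (95% interval 4.16 to 5.81), and was 5.61-fold lower (4.05 to 8.01) in TAL-β. Pvt1, a lncRNA beside Myc, stood at 7.68 CPM in medullary and 28.4 CPM in cortical TAL-α, 3.70-fold lower (2.82 to 4.89), and was 2.64-fold lower (1.67 to 4.38) in TAL-β. Sox2ot, which spans Sox2, stood at 7.97 CPM in medullary and 19.5 CPM in cortical TAL-β, 2.45-fold lower (1.39 to 4.64). Within the cortex library Ftx was 1.72-fold higher (1.41 to 2.08) in MD than in the other TAL nuclei. Region and library cannot be told apart in the values between libraries.

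Single nuclei with a count of both Gm16310 and Mrps6 made up 24.1% of medullary TAL-α nuclei thinned to 1000 counts, and the product of the separate shares was 20.3%. In cortical TAL-α the share with both was 5.45% and the product 3.54%.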
